A study of Mus musculus with 4 samples.

Results

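Ependymal cells are the ciliated epithelium that lines the brain ventricles, and 75 of them were found among 60942 brain cells that passed quality limits. The cells were chosen by measured UMI counts: a cell was taken as ependymal when at least 3 of the 6 genes Foxj1, Ccdc153, Tmem212, Rarres2, Dynlrb2 and Mia had a UMI (unique molecular identifier, the tag that counts 1 captured mRNA molecule), with Foxj1, Ccdc153 or Tmem212 among them. Cells with a UMI of Csf1r, Cldn5, Mag or Folr1, genes of myeloid cells, endothelium, oligodendrocytes and choroid plexus, were left out. The 75 cells came from 4 libraries, 30 from Flox control 1, 11 from Flox control 2, 22 from Ms4a3 cKO 1 and 12 from Ms4a3 cKO 2.

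The study asked how transcription changes after stroke when myeloid cells lose Htr2b, the gene of the serotonin receptor 5-HT2B. Adult C57B6 mice, male and/or female, had transient middle cerebral artery occlusion (tMCAO), in which a brain artery is blocked and then reopened, and the hemisphere on the operated side was taken 3 days later. Libraries were made on the BD Rhapsody microwell platform without enrichment for any cell type. Flox control libraries came from Htr2b flox/flox littermates, and Ms4a3 cKO libraries from mice named as Htr2b ERCre with Ms4a3-Cre. Tamoxifen was followed by 3 days of washout before the operation. The labels do not say which of the named Cre alleles acted or whether the controls also received tamoxifen. Ms4a3 is known as a gene of granulocyte and monocyte progenitors, and the stated aim was recombination in myeloid cells. The labels do not state that the 2 libraries of a genotype came from separate mice. The p-values below thus reflect how far these samples vary, and that variation may be technical.

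Each ependymal cell carries a tuft of motile cilia whose beating moves cerebrospinal fluid along the ventricle wall. A motile cilium is built on an axoneme, a ring of doublet microtubules around a central pair; dynein arms on the doublets drive the beat, and radial spokes and nexin links keep it in order. The transcription factor Foxj1, working with factors of the Rfx family, switches on the genes of motile cilia. Ependymal cells share an origin and several genes with astrocytes, and they border the choroid plexus, the epithelium that secretes the fluid.

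The targeted gene itself was not seen in these cells. Htr2b had 0 UMIs in 407465 UMIs of the 75 ependymal cells, and 0 of 75 cells allows a share of up to 4% of cells with a UMI, or 7.36 UMIs per 1000000 (CPM). In myeloid cells of the same libraries Htr2b stood at 60.7 and 107 CPM in Flox control 1 and 2 and at 61.5 and 68.3 CPM in Ms4a3 cKO 1 and 2, so the cKO libraries lay within the range of the controls. The deposited counts do not say which part of the transcript was counted, so these values do not check the deletion. Ms4a3 also had 0 UMIs in ependymal cells.

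The 6 genes of the rule had the following levels. These values chose the cells and are given as a description. Tmem212, which encodes a transmembrane protein of ciliated cells, stood at 2378, 1075, 1631 and 1629 CPM in Flox control 1, Flox control 2, Ms4a3 cKO 1 and Ms4a3 cKO 2, the order used throughout. It had a UMI in 71 of the 75 cells and stood at 0.951 CPM in all other cells that were kept. Dynlrb2, a light chain of dynein motors, stood at 1146, 587, 641 and 621 CPM and was found in 73 cells. Ccdc153, a coiled-coil protein known as an ependymal marker, stood at 494, 114, 262 and 279 CPM in 53 cells. Rarres2, the secreted protein chemerin, stood at 316, 244, 126 and 321 CPM in 43 cells. Foxj1 stood at 112, 261, 281 and 193 CPM in 43 cells, and the secreted protein Mia at 244, 179, 107 and 107 CPM in 39 cells. Tmem212, Dynlrb2, Ccdc153 and Mia were highest in Flox control 1, and Foxj1 was lowest there.

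Promoters of 2 genes of the rule (Ccdc153, Dynlrb2) and 3 leading genes (Fam183b, Iqca, Sntn) are shown because Rfx and forkhead factors bind sites of this kind at genes of cilia. Each is the sequence before the RefSeq transcription start in GRCm38.p6, 5′ to 3′ on the strand of the gene, without bases that GENCODE assigns to an exon. Capitals mark GTTGCC, the repeated core of an RFX site, or TGTTTAC, a core that forkhead factors such as Foxj1 bind, on either strand. The windows are chr9:44240427-44240675 (plus strand) for Ccdc153, chr8:116504765-116504973 (plus) for Dynlrb2, chr11:58801961-58802210 (minus) for Fam183b, chr1:90153437-90153627 (minus) for Iqca and chr14:13670626-13670875 (plus) for Sntn.
Ccdc153: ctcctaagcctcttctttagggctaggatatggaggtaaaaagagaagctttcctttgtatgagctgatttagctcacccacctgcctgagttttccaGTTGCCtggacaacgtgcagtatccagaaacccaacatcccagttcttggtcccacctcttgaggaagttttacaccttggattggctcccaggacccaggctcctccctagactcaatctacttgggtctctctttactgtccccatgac
Dynlrb2: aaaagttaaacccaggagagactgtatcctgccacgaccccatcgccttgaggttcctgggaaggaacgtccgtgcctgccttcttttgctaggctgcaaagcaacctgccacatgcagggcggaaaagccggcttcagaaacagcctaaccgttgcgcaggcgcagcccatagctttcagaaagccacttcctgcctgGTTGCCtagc
Fam183b: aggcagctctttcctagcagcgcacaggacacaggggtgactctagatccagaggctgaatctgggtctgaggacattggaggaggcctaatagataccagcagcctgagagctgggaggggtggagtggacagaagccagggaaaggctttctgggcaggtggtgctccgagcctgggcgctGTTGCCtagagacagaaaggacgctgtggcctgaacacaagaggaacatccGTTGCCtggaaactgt
Iqca: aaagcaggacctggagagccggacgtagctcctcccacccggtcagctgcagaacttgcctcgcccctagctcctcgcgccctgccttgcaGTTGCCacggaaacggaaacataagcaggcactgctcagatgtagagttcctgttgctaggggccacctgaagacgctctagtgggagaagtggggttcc
Sntn: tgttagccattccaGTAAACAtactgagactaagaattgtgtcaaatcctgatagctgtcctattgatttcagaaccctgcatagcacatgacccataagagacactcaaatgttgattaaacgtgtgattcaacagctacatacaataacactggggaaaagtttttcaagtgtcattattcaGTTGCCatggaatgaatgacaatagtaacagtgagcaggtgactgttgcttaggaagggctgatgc
Fam183b held GTTGCC at 2 places, and Sntn held both motifs. RefSeq windows of 250 bases before the start were found for 18 of the 25 leading genes described below (20 windows), and 5 of these windows (25%) held GTTGCC or its reverse complement GGCAAC, against 10.4% of 32851 windows of all genes. TGTTTAC or its reverse complement GTAAACA was in 3 of the 20 windows (15%), against 3.17% of all. Of 4 genes of the rule with a window, 2 held GTTGCC and 0 held TGTTTAC. The 5 genes shown were chosen after their matches were seen, and a match is a description of letters and not a bound site.

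Genes of the axoneme bear on the label, and they were plentiful in most of the 75 cells and scarce in a few. Of 92 axoneme genes listed for dynein arms, their assembly, radial spokes and inner microtubule proteins, the median ependymal cell held a UMI of 42, with a range of 4 to 59. Median cells held 48 and 43 in Flox control 1 and 2 and 32.5 in both cKO libraries. These medians went with depth, which was 6271, 6443, 3908 and 4119.5 UMIs per median cell. With each cell thinned to 1000 UMIs the medians were 14.5, 12, 13.5 and 13 genes, over 30, 10, 22 and 12 cells, while 1 cell of Flox control 2 was too shallow to thin. Median choroid plexus cells, thinned in the same way, held 1 to 2.5 axoneme genes by library, and median astrocytes held 0.

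**Figure D1:**
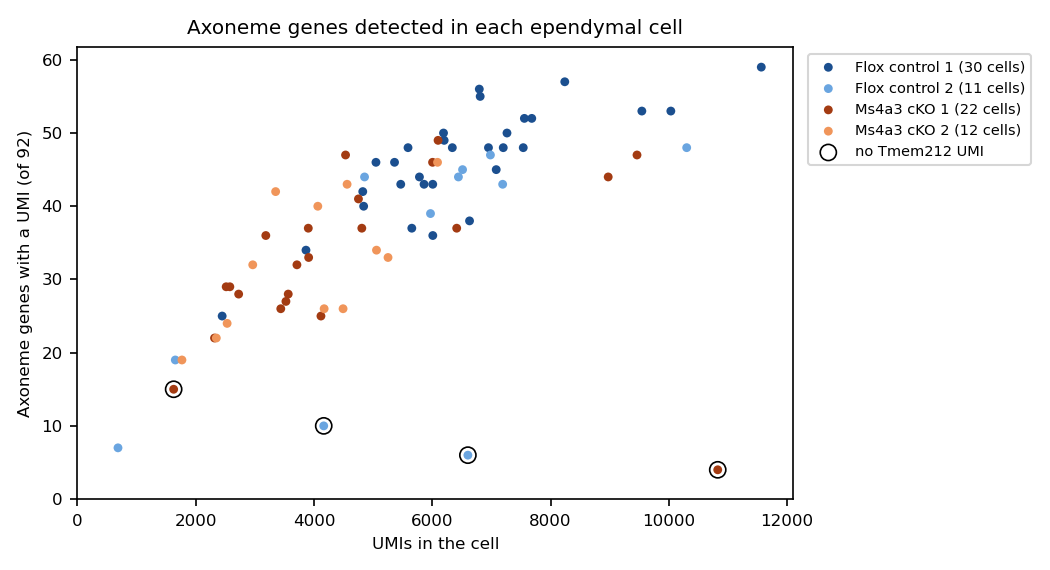
Axoneme genes with a UMI (of 92) against UMIs in the cell, 1 point for each of the 75 ependymal cells, coloured by library; circles mark the 4 cells without a Tmem212 UMI. Most cells rise together with depth, and 3 of the circled cells, at 4, 6 and 10 axoneme genes, lie far below other cells of like depth.

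Of the 75 cells, 68 held 20 or more axoneme genes and 7 held fewer. Among these 7 were all 4 cells without a Tmem212 UMI. A Flox control 2 cell with 10 axoneme genes held 160 UMIs of Ttr and 249 of Enpp2, both products of choroid plexus, which made up nearly all of the 165 Ttr and 256 Enpp2 UMIs of that library's ependymal cells. A Flox control 2 cell with 6 axoneme genes held 30 UMIs of Gfap and 29 of Slc1a3, and an Ms4a3 cKO 1 cell with 4 axoneme genes held 21 of Gfap and 82 of Slc1a3, genes of astrocytes. The fourth cell, in Ms4a3 cKO 1, held 15 axoneme genes at 1629 UMIs. These cells met the rule and stayed in, and levels that moved over 1.5-fold without them are given both ways. None of the 75 was a predicted doublet, among 1257 predicted doublets in all kept cells, and 0 of their barcodes recurred in another library, against 13 of all kept barcodes.

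Of the 75 cells, 20 held 3 of the 6 genes, 24 held 4, 20 held 5 and 11 held all 6. Just outside the rule were 22 cells with 2 of the genes and 31 cells with 3 or more of them that also held a UMI of Csf1r (16 cells), Folr1 (15), Mag (6) or Cldn5 (1). Mitochondrially encoded UMIs made up 14.7, 9.89, 12 and 11% of the median ependymal cell, against 6.23% over all other kept cells. The median was 10.0% in astrocytes and 16.1% in choroid plexus cells, so a high share was not particular to ependymal cells. The limit lay at 20%, 20 of the 75 cells were between 15% and 20% (13 of them in Flox control 1), and 8 further barcodes met the rule at 20% or more (7 of them in Flox control 1).

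Across the transcriptome the leading genes were those of motile cilia. Among 3436 genes with a UMI in at least 25% of ependymal cells and in each library, 363 (10.6%) stood at least 10-fold above other kept cells in every library, with 1 CPM added to both. The rule chose cells by expression, so this contrast is a description without a test. The 25 genes with the largest ratio, outside the rule, are shown in the plot of leading genes.

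**Figure D2:**
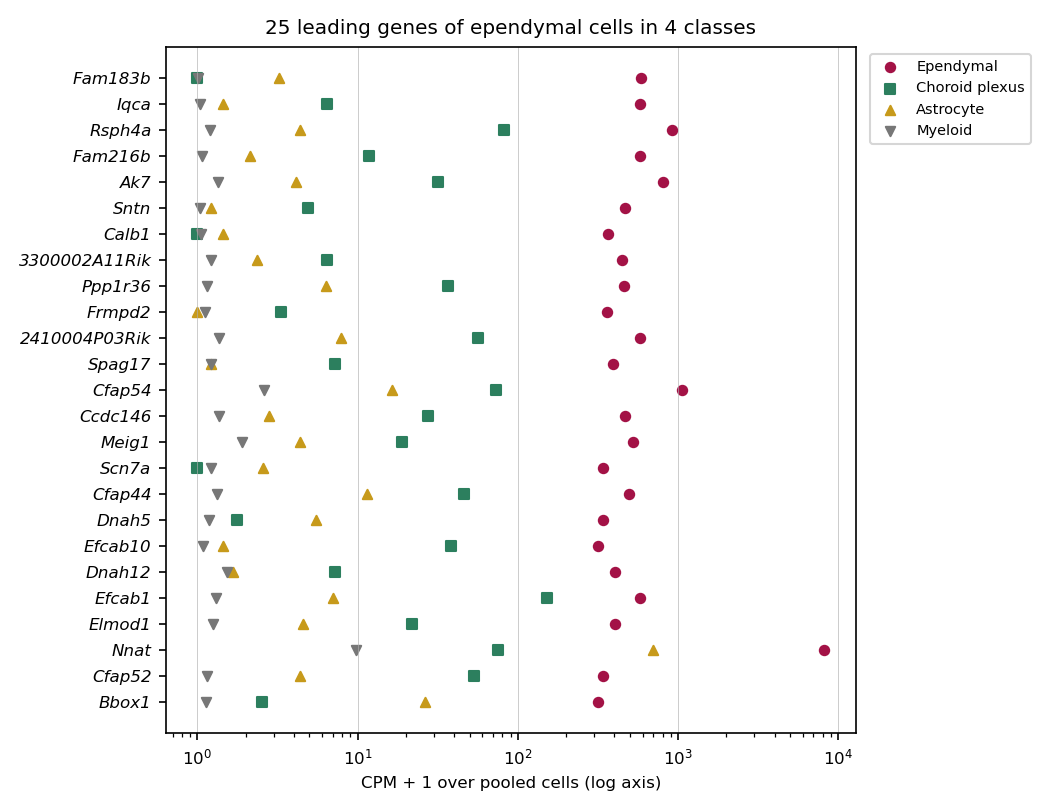
Level (CPM + 1, log axis) of the 25 leading genes in pooled ependymal, choroid plexus, astrocyte and myeloid cells, 1 row per gene in order of the ratio to other kept cells. Ependymal cells lie at 314 CPM or more for each gene, choroid plexus cells come next for most, and Nnat is the highest at 8165 CPM.

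Radial spokes, the central pair and nexin links gave 27 of 36 genes above 10-fold. Rsph4a, a protein of the spoke head, stood at 1054, 798, 728 and 879 CPM, against 81.2 CPM in choroid plexus and 3.35 in astrocytes. Cfap54, a protein of the central pair, stood at 860, 1075, 1272 and 1371 CPM, against 71.9 CPM in choroid plexus. Hydin, the large central pair protein whose loss causes hydrocephalus in mice, stood at 270, 342, 281 and 214 CPM, against 6.96 CPM in choroid plexus. The 4 libraries differed by less than 2-fold for each of these 3 genes, while Spef2, a central pair protein of the same list, ranged wider, at 479, 244, 514 and 814 CPM. Rsph6a and Spag6 were at 0 UMIs, while Spag6l, the other Spag6 copy of the mouse, stood at 425 CPM, and reads of these near copies could be split in counting.

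Dynein arms gave 12 of 21 genes above 10-fold. Dnah5, a heavy chain of the outer arm, stood at 438, 375, 194 and 193 CPM, and Dnah9, also of the outer arm, at 234, 196, 379 and 300 CPM. The cKO libraries were thus the lower pair for Dnah5 and the higher pair for Dnah9. Dnah12 and Dnah6, heavy chains of inner arms, stood at 405 and 385 CPM over all cells. Dnah8 was at 0 UMIs. The list for the assembly of dynein arms, which takes place before they enter the cilium, gave 5 of 14. Its highest genes were Pih1d2 (265 CPM), Mns1 (248 CPM) and Lrrc6 (169 CPM). Mns1 is also on the list of proteins inside the doublet microtubules, described next.

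Proteins inside the doublet microtubules and tektins gave 13 of 27. Enkur stood at 993, 538, 621 and 900 CPM, and Fam183b, one of the leading genes, at 815, 440, 349 and 321 CPM. Fam183b had 0 UMIs in choroid plexus cells. Tuba1a, an alpha-tubulin common to many cells, was the most abundant of this list at 3006 CPM but also stood at 1027 CPM in astrocytes. Intraflagellar transport and the BBSome, which carry cargo in all cilia, motile or not, gave 5 of 31. Ttc30b stood at 468, 570, 553 and 450 CPM, against 92.1 CPM in choroid plexus. The other genes of this list stayed under 10-fold in at least 1 library or were found in fewer than 25% of the cells.

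Basal bodies and ciliary energy supply gave 15 of 32. Ak7, an adenylate kinase of motile cilia, stood at 820, 570, 835 and 1029 CPM. Meig1 stood at 723, 456, 291 and 300 CPM, and Sntn, a protein of the ciliary tip, at 545, 326, 427 and 429 CPM. Sntn stood at 3.87 CPM in choroid plexus, so of these genes it was among the lowest there.

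Of 20 regulators of multiciliation, 6 were above 10-fold and 2 were at 0 UMIs. The 6 included Foxj1, whose UMIs chose the cells. Sox9, a factor of glia and ependyma, stood at 1156, 2004, 2000 and 2722 CPM and was found in 73 of 75 cells. Rfx3 stood at 214, 293, 126 and 85.7 CPM, and Rfx2 at 86.6, 65.2, 58.2 and 150 CPM. Myb, a factor of multiciliated precursors, stood at 239, 97.8, 97.1 and 129 CPM, against 2.45 CPM in astrocytes. Trp73, whose loss depletes multiciliated cells, stood at 58.9 CPM over all cells. Cdc20b and Foxn4 were at 0 UMIs, which allows up to 7.36 CPM over all cells.

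Outside the cilium, the most abundant leading gene varied widely between libraries. Nnat, an imprinted gene for the small membrane proteolipid neuronatin, stood at 11054, 8505, 2640 and 7757 CPM. Median cells held 117, 58.1, 19.4 and 73.6 UMIs of Nnat per 10000, and cells ranged from 0 to 246 per 10000 within Flox control 1. Ms4a3 cKO 1 was the lowest library and overlapped the others cell by cell. Calb1, a calcium-binding protein, stood at 631, 130, 126 and 85.7 CPM; it was seen in 21 of 30 cells of Flox control 1 and in 13 of 45 cells elsewhere. Scn7a, a sodium channel known from sodium-sensing glia, stood at 224, 261, 524 and 514 CPM, against 1.56 CPM in astrocytes and 0 in choroid plexus. Cd24a, a surface glycoprotein used to sort ependymal cells, stood at 1904, 4236, 2834 and 2593 CPM.

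**Figure D3:**
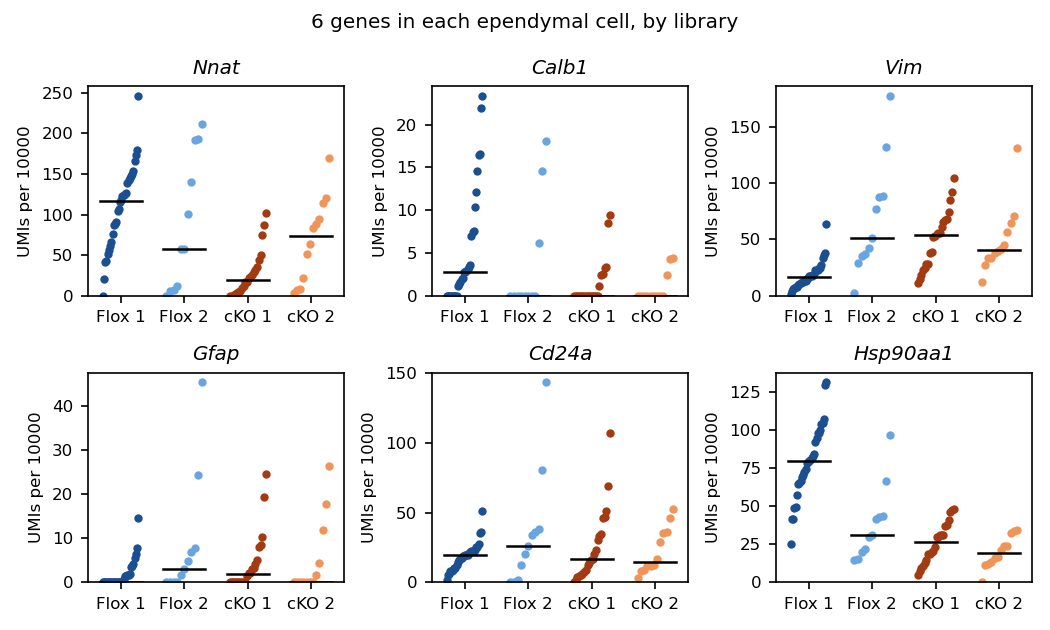
UMIs per 10000 of 6 genes in each ependymal cell, sorted within its library, with black lines at the medians. Nnat and Hsp90aa1 have their highest medians in Flox control 1 (117 and 79.5), where the median of Vim is lowest (16.7).

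Some water, ion and junction genes stood near their level in astrocytes and others far below it. Aqp4, the water channel of astrocytes and ependyma, stood at 575, 1141, 883 and 879 CPM, against 1080 CPM in astrocytes and 5.41 in choroid plexus. Gja1, the gap junction protein connexin 43, stood at 728, 912, 349 and 664 CPM, while Gjb6, connexin 30, was in 1 cell (17.2 CPM, against 1358 in astrocytes). Slc1a2, the main glutamate transporter of astrocytes, stood at 260, 798, 971 and 279 CPM, against 8905 CPM in astrocytes. With only the cells that had Tmem212 it stood at 260, 711, 342 and 279 CPM. The 12 astrocyte markers summed to 3060 to 6403 CPM by library, against 24688 CPM in astrocytes, and to 3060 to 6027 CPM without the 4 cells that lacked Tmem212. Car9, a carbonic anhydrase at the cell surface, stood at 148, 97.8, 107 and 236 CPM, against 1.12 CPM in astrocytes and 0 in choroid plexus.

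Of 19 genes of the stem cell niche and of tanycytes, the related cells that line the floor of the third ventricle, 6 were at 0 UMIs. These were Rax, Crym, Frzb, Cndp1, Fgf10 and Thbs4. The other 13 had UMIs, 5 of the 19 were found in at least 25% of the cells, and 2 stood above 10-fold in every library. Scn7a, described above, is on this list, as is Cd9, which stood at 993, 1809, 2126 and 1972 CPM. Choroid plexus genes were low apart from the cell described above: their 17 genes summed to 1298, 8831, 1553 and 1136 CPM, and to 909 CPM in Flox control 2 without cells that lacked Tmem212, against 150018 CPM in choroid plexus. In the cells with Tmem212, Ttr stood at 5.09, 98.8, 110 and 64.3 CPM, and in myeloid cells, which are not known to make it, at 115 CPM. Otx2, a factor of the choroid plexus, stood at 209, 261, 379 and 279 CPM and was found in 37 ependymal cells. The cell with 160 Ttr UMIs held 11 of the 16 Otx2 UMIs of Flox control 2, and with only the cells that had Tmem212 the levels were 209, 98.8, 409 and 279 CPM, lowest in Flox control 2.

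Genes of injury response spread widely between libraries. Vim, an intermediate filament protein of glia, stood at 1838, 8033, 5484 and 5357 CPM. Gfap, the filament protein that marks reactive astrocytes, stood at 173, 1059, 447 and 600 CPM, was absent from 38 of the 75 cells and had 10 or more UMIs in 5. Without the 4 cells that lacked Tmem212 it stood at 173, 692, 232 and 600 CPM. Serpina3n, a protease inhibitor of reactive glia, stood at 20.4, 880, 349 and 471 CPM, and Osmr, the oncostatin M receptor, at 5.09, 244, 184 and 343 CPM. Flox control 1 was the lowest library for each of these 4 genes, and the 23 genes of the reactive list summed to 4954, 15512, 9561 and 10243 CPM. In astrocytes Flox control 1 was also the lowest library for Vim (1686 CPM, against 2191 to 5675), Serpina3n and Osmr, but not for Gfap (707 CPM, against 389 to 970).

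Several interferon-response genes were highest in Flox control 1. Ifit3 stood at 346, 0, 58.2 and 21.4 CPM and was seen in 17 of 30 cells of Flox control 1 and in 2 of 45 cells elsewhere. Oasl2 stood at 402, 48.9, 29.1 and 64.3 CPM. Both levels leaned on a few cells of Flox control 1. Its median cell held 1 UMI of Ifit3 and 0 of Oasl2, and its highest cells held 16 and 20. Ifitm3 stood at 1105, 1890, 1077 and 1007 CPM, so the order did not hold for it. MHC class I genes summed to 1802, 456, 883 and 1564 CPM, and MHC class II genes to 0 to 81.5 CPM, against 786 CPM in myeloid cells. Hsp90aa1, a chaperone, stood at 8192, 3633, 2563 and 1993 CPM and was highest in Flox control 1, the library whose ependymal cells also had the highest mitochondrial share (14.7%). The part of cell quality in these differences was not tested.

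The 17 cell cycle genes summed to 150 to 398 CPM by library, against 1558 CPM in astrocytes, and Mki67 was found in 3 cells. Of 17 genes of serotonin receptors and handling 13 were at 0 UMIs. Maob, a mitochondrial enzyme that breaks down amines, stood at 163, 130, 252 and 193 CPM, and the receptor gene Htr5b had UMIs in 5 cells (24.5 CPM) and 0 in astrocytes, choroid plexus and myeloid cells.

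**Figure D4:**
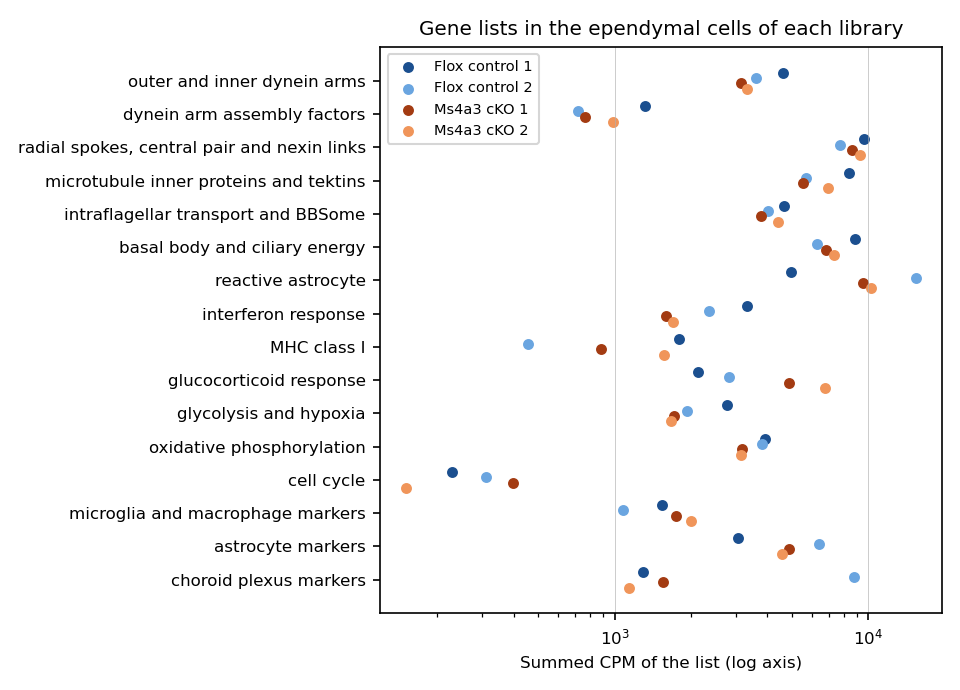
Summed CPM (log axis) of 16 gene lists in the ependymal cells of each library, 1 point per library. Radial spoke genes lie between 7772 and 9623 CPM, while the reactive list runs from 4954 to 15512 CPM and choroid plexus markers stand apart in Flox control 2 at 8831 CPM.

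Markers of other cell types were at low levels. The 19 microglia and macrophage markers summed to 1075 to 1993 CPM, against 62425 CPM in myeloid cells, with Csf1r (barred by the rule) and Tmem119 at 0. The 10 oligodendrocyte markers summed to 107 to 212 CPM and the 10 endothelial markers to 293 to 476 CPM, of which Pltp alone gave 244 to 427. Of 12 T, NK and B cell markers 11 were at 0, and all 5 erythrocyte markers were at 0. Their part in the results was not tested.

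Ependymal cells were 0.222, 0.0666, 0.144 and 0.0768% of kept cells, with exact Clopper-Pearson 95% intervals of 0.150 to 0.317, 0.0333 to 0.119, 0.0902 to 0.218 and 0.0397 to 0.134%, which cover counting error only. The genotypes overlapped, since each had a library near 0.07% and a higher one. The log2 ratio of mean shares, cKO over Flox, was -0.39 (exact two-sided permutation test, p = 1, n = 2 and 2, where the smallest possible p is 0.33). It was 0.73 without Flox control replicate 1. Over kept cells without the myeloid cells the shares were 1.07, 0.197, 0.334 and 0.199% and the log2 ratio was -1.24. Thinning every cell to 1000 UMIs before the rule was applied left 0.154, 0.0138, 0.0639 and 0.0353%.

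Between genotypes, 0 genes passed in ependymal cells. The UMIs of each library's cells were summed and compared with edgeR's quasi-likelihood test over 1967 genes, of which 0 (0.0%) were called at a Benjamini-Hochberg adjusted p under 0.05 and 145 had an unadjusted p under 0.05. DESeq2 called 1 gene, Gt(ROSA)26Sor. Without Flox control replicate 2 edgeR called 92 genes, without Flox control replicate 1 it called 10, without Ms4a3 cKO replicate 1 it called 3 and without Ms4a3 cKO replicate 2 it called 0; a lone library is then assumed to vary like the other genotype. In simulated counts of the same size the test recovered 2.31% of genes changed 2-fold. It recovered 82.3% of those changed 4-fold and 97.0% of those changed 8-fold. Changes near 2-fold were thus not detectable at this depth. In the real counts Prkg1, Gt(ROSA)26Sor and Grik2 had log2 fold changes of -3.14, 2.92 and 2.89, and edgeR called none of them. How far the percentages hold at the spread of the real counts was not tested. The count of 0 thus does not show that larger changes were absent. Sums over so few cells also cannot separate fewer cells of a state from less RNA per cell.

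The 9 genes with the smallest p are shown by library. Gt(ROSA)26Sor, a noncoding transcript of the locus used for many transgenes, stood at 234, 48.9, 1592 and 943 CPM. Both cKO libraries were above both controls, the log2 fold change was 2.92 ± 0.53 (SE) and the edgeR adjusted p was 0.164, with a range of 3.5e-10 to 0.399 over 16 alternatives. In astrocytes it stood at 266, 12.4, 1624 and 671 CPM, the same order of libraries. Klf9, a transcription factor induced by glucocorticoids, stood at 316, 407, 1107 and 1157 CPM, with a log2 fold change of 1.62 ± 0.37 (edgeR adjusted p = 0.296). Dusp1, a phosphatase of stress signalling, stood at 71.3, 147, 602 and 386 CPM (2.33 ± 0.48, edgeR adjusted p = 0.213). Etnppl, a phospholyase of phosphoethanolamine, stood at 117, 163, 602 and 471 CPM (1.97 ± 0.41, edgeR adjusted p = 0.213). The groups did not overlap for any of these 4 genes, but over all 1967 genes both cKO libraries were above both controls for 20.4% and below them for 15.9%.

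The other 5 genes had adjusted p-values of 0.296 to 0.504 and groups that did not overlap. Prkg1, a cGMP-dependent kinase, stood at 193, 163, 19.4 and 21.4 CPM and Ecrg4, a secreted protein of ependyma and choroid plexus, at 397, 440, 146 and 107 CPM, both lower in the cKO libraries. Prkg1 rested on 2 and 1 UMIs in the cKO libraries. Each of the 9 genes had an adjusted p under 0.05 in 2 to 8 of the alternatives in which it was tested, among them the fit without Flox control replicate 2 for Ecrg4 (edgeR adjusted p = 0.015, with a range of 0.015 to 0.9995 over 16 alternatives). Grik2, a glutamate receptor subunit, stood at 30.5, 16.3, 165 and 279 CPM, and Ppargc1a, a coactivator of mitochondrial genes, at 117, 48.9, 476 and 257 CPM. Grik2 rested on 6 and 1 UMIs in the controls, and Ppargc1a on 3 UMIs in Flox control 2. Mt1, a metallothionein, stood at 418, 635, 1155 and 1886 CPM. With only the cells that had Tmem212, Ecrg4 stood at 397, 198, 166 and 107 CPM. In choroid plexus the log2 fold change of Ecrg4 was 0.49 ± 0.26 (edgeR adjusted p = 0.55), and the difference between the cell types, -2.36 ± 0.54, did not pass (edgeR adjusted p = 0.65).

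**Figure D5:**
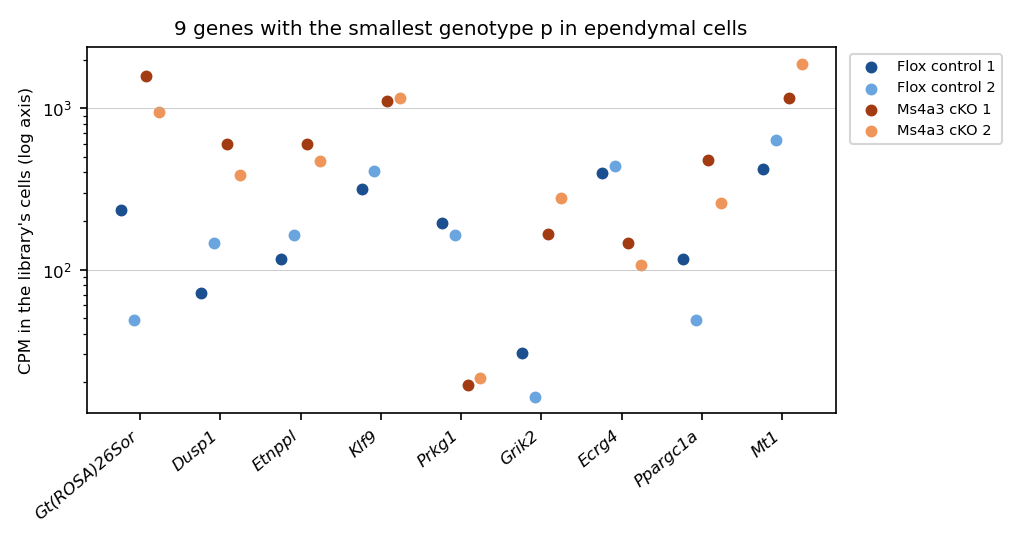
CPM (log axis) of the 9 genes with the smallest genotype p in the ependymal cells of each library, 1 point per library. Control points (blue shades) and cKO points (brown and orange) do not overlap for any of the 9, and the adjusted p is 0.164 or more for each.

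Counts of the tested genes and their medians are given for part of the gene lists. Over all 1967 genes the median log2 fold change was -0.0019, and 0 genes of any list passed. Of 9 glucocorticoid-response genes tested 7 had a log2 fold change above 0, and the median was 1.5. In both cKO libraries 6 of the 9 stood above both controls, as did 20.4% of all 1967 genes. The 6 included Klf9, Dusp1, Mt1 and Mt2 (433, 766, 961 and 1800 CPM), and the list summed to 2123, 2819, 4863 and 6772 CPM. Dusp1 is also on the list of immediate early and dissociation genes, and Mt1 and Mt2 are also on that of metallothioneins and oxidative stress. Fkbp5, a cochaperone of the glucocorticoid receptor, was too low to be tested, at 5.09, 0, 87.4 and 42.9 CPM, or 55.2 CPM in Ms4a3 cKO 1 with only the cells that had Tmem212. In astrocytes it stood at 48.8, 67.7, 373 and 285 CPM. Of 10 dynein arm genes 9 were below 0, with a median of -0.46, and of 21 radial spoke genes 12 were below 0, with a median of -0.21. Microtubule inner proteins had a median of -0.24 (11 of 15 below 0) and intraflagellar transport -0.26 (7 of 11 below 0). For glycolysis and hypoxia 5 genes were tested, their median was -0.78, and Pgk1, a glycolytic kinase, stood at 1039, 619, 466 and 364 CPM. Of 9 reactive genes 5 were below 0, with a median of -0.18. Stat3, the factor below the oncostatin M receptor, stood at 50.9, 179, 233 and 429 CPM. Of 8 regulators 4 were above 0, with Foxj1, a gene of the rule, among the 4. Of 2 interferon-response genes both were below 0. Of 7 immediate early and dissociation genes 5 were above 0, with a median of 0.81. Below 0 were 9 of 11 oxidative phosphorylation genes (median -0.31) and 15 of 20 genes of basal bodies and ciliary energy (-0.18). Of 10 cerebrospinal fluid factors 7 were below 0, with a median of -0.48. These 7 included Mia and Rarres2, whose UMIs chose the cells. Enpp2 was also among them, and most of its Flox control 2 UMIs came from the single cell described above.

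The genotype effect in ependymal cells was also compared directly with that in astrocytes. In 1 fit with the library as a block, 3 of 6422 genes (0.0467%) differed at an edgeR adjusted p under 0.05. The same fit was run on simulated counts, with genes changed between genotypes in ependymal cells only. It recovered 0% of genes changed 2-fold, 31% of those changed 4-fold and 78% of those changed 8-fold. The simulation covered 1967 genes. Its astrocyte counts had the depth of astrocytes but the mean levels and spread of ependymal cells, so recovery in the real comparison may differ. Spata1, a gene named for spermatogenesis, stood at 35.6, 48.9, 9.71 and 21.4 CPM in ependymal cells and at 16.3, 16.6, 1096 and 358 CPM in astrocytes (difference of log2 fold changes -7.29 ± 1.05, edgeR adjusted p = 0.00018). The difference rested on high astrocyte values in the cKO libraries. In ependymal cells Spata1 had 7, 3, 1 and 1 UMIs, under the floor of 3 UMIs in both cKO libraries. Ttr differed by -8.18 ± 0.75 and Enpp2 by -4.87 ± 0.80 (edgeR adjusted p = 9.6e-09 and 0.0016). In ependymal cells the Flox control 2 cell with 160 and 249 UMIs of them gave most of that library's level, and in astrocytes Ms4a3 cKO 1 was highest, at 2026 CPM of Ttr and 1539 CPM of Enpp2, against 114 and 231 CPM or less in the controls. With only the cells that had Tmem212 they differed by -3.63 ± 0.99 and -2.15 ± 0.60 (edgeR adjusted p = 0.088 and 0.11), while Spata1 differed by -7.26 ± 1.10 and 14 genes passed in all. With 4 or more of the 6 markers, which also leaves that cell out, Ttr differed by -4.67 ± 1.16 (edgeR adjusted p = 0.034) and Enpp2 by -1.995 ± 0.72 (edgeR adjusted p = 0.52). Without Flox control replicate 2 Ttr did not pass (-4.51 ± 2.35, edgeR adjusted p = 0.83) and Enpp2 did (-2.83 ± 0.64, edgeR adjusted p = 0.0053). Spata1 did not pass without Ms4a3 cKO replicate 1 (-5.52 ± 1.36, edgeR adjusted p = 0.054). Leaving out Flox control replicate 1, Flox control replicate 2 or Ms4a3 cKO replicate 2 gave 20, 24 and 8 genes.

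Against choroid plexus cells, 0 of 3546 genes (0.0%) differed in genotype effect, and 185 had an unadjusted p under 0.05. Without Flox control replicate 1 the count was 3 and without Flox control replicate 2 it was 1. The comparison pooled 26, 30, 62 and 84 choroid plexus cells by library. Simulated counts were made for the comparison with astrocytes only. With ependymal mean levels in both classes, 31% of genes changed 4-fold were recovered there. A count of 0 here thus does not show that the genotype effects were alike.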

How the data were processed

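Single-cell RNA-seq was measured in 4 libraries, 2 per genotype, grouped by sample title. The values the authors deposited are raw UMI counts for 31253 genes per barcode; per the submitters' processing notes reads were handled with fastp 0.24.0 and STARsolo on mm10, while for the STARsolo version, the annotation and the filter on barcodes the value is not given in the sources used. Depth per library was 77580518 to 105566650 UMIs, and no deposited barcode had fewer than 500.

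Barcodes with at least 500 UMIs and 250 genes and under 20% mitochondrial UMIs were kept. Doublets were predicted with Scrublet in scanpy 1.11.5 (expected 6%) and not removed. Comparison classes needed 3 markers: astrocytes (Aldoc, Slc1a2, Gja1, Gjb6, Ntsr2, Aqp4), choroid plexus (Folr1, Kcnj13, Clic6, Kl, Prlr, Sostdc1), endothelium (Cldn5, Flt1, Ly6c1, Pecam1, Cdh5) and myeloid cells (Csf1r, C1qa, C1qb, C1qc, P2ry12, Cx3cr1 and 1 further gene). Astrocytes, endothelium and myeloid cells had Foxj1, Ccdc153 and Tmem212 at 0. They also had Csf1r, Cldn5, Mag and Folr1 at 0, except a class's own marker. Choroid plexus cells needed Folr1, with Csf1r, Cldn5 and Mag at 0. Ependymal genes were allowed in choroid plexus cells, and Foxj1 had a UMI in 6.93% of them. CPM are UMIs per 1000000 over the summed cells of a class and library; 3 UMIs served as floor. Cells are not replicates, so sums per library were tested with edgeR 4.0.16 (TMM, filterByExpr, quasi-likelihood, Benjamini-Hochberg, threshold 0.05) in R 4.3.3, with DESeq2 1.42.0 as the other tool; the steps were tested on simulated data.

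Members and gene lists were chosen with earlier results of these data known. Named genes were the 6 of the rule, Htr2b, Ms4a3, the 25 with the largest ratio to other cells, the 10 with the smallest genotype p (of which 1 is not reported here), and of each list the 4 highest and the 2 with the smallest p; further list members named in the text were chosen after their values were seen. Replicate numbers are not stated to pair mice, so no block was fitted in the values reported. Whether libraries were paired is not known. Alternatives were other limits on cells and genes, scaling, each library left out, replicate blocks and other denominators. Promoters came from RefSeq and loci from GENCODE, both on GRCm38, the build mm10 names.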

Additional observations from a re-analysis of the deposited data

Results flagged for a closer look

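The genotype effect differed between ependymal cells and astrocytes for 3 genes by the interaction test. The log2 difference was -8.18 for Ttr, with 5.09, 2688, 97.1 and 64.3 CPM in ependymal cells and 3.62, 114, 2026 and 288 CPM in astrocytes of Flox control 1, Flox control 2, Ms4a3 cKO 1 and Ms4a3 cKO 2. It was -7.29 for Spata1, whose astrocyte level was 1096 and 358 CPM in the cKO libraries and 16.3 and 16.6 CPM in the controls. In ependymal cells Spata1 had 7, 3, 1 and 1 UMIs. The log2 difference was -4.87 for Enpp2, with 158, 4171, 194 and 150 CPM in ependymal cells and 128, 231, 1539 and 306 CPM in astrocytes. A single cell of Flox control 2 held 160 of 165 Ttr UMIs and 249 of 256 Enpp2 UMIs in that library.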

How the results depend on the processing

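The count of genes between genotypes (0) became 2 with 4 or more of the 6 markers, 1 with DESeq2, 9 without a filter on low counts, 4 with the replicate block and 0 to 92 with a library left out. Deviations from the genotype mean correlated at -0.121 between same-numbered libraries and at 0.121 between differently numbered ones, over 1967 genes. With 2 libraries per genotype these values mirror each other, so they cannot show whether libraries were paired. The crossed replicate block, added after seeing the data, gave 13. The count against astrocytes (3) became 11 with 4 or more markers, 14 with only Tmem212 cells, 14 without the filter and 4 to 24 with a library left out. The count against choroid plexus (0) became 5 with 4 or more markers and 0 to 3 with a library left out. The share ratio ran from -1.01 to 0.73 with a library left out, and was reversed at 0.73 without Flox control replicate 1. It was -1.24 with myeloid cells left out of the denominator and -0.76 to -0.29 under the other settings. The cause of these shifts was not tested.

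Of 761 values for 50 named genes 747 kept their direction. With only Tmem212 cells the log2 fold change of Enpp2 reversed to 0.34. With a library left out 8 genes reversed, with ranges of -4.55 to 0.059 for Enpp2, -0.019 to 5.20 for Osmr, -0.45 to 0.26 for Gbp2, -1.43 to 0.90 for B2m, -0.28 to 0.99 for H2-D1, -0.22 to 0.090 for Stmn1, -0.28 to 0.58 for Pltp and -1.74 to 0.88 for Col1a2. Depth limits the comparison, since 46665 to 196404 UMIs per library stood behind it.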
